A study of Ovis aries with 40 samples.

Results

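The ATP-binding cassette (ABC) genes encode membrane pumps and related ATPases, and they are described here through gestation in the lungs of wildtype (WT) and cystic fibrosis (CF, CFTR-/-) sheep. They were taken as every gene whose symbol was ABCA, ABCB, ABCC, ABCD, ABCE, ABCF or ABCG followed by a number, other than ABCA3. This gave 39 of 24478 annotated genes, with 8 in subfamily A, 8 in B, 10 in C, 4 in D, 1 in E, 3 in F and 5 in G. The channel gene CFTR and the peptide transporter genes TAP1 and TAP2 belong to the same protein family but carry other symbols, so they were not counted among the 39.

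ABC transporters bind and hydrolyse ATP at a pair of nucleotide-binding domains and use the energy to move a substrate across a membrane. The A and G subfamilies mostly handle sterols and phospholipids, the B subfamily holds the multidrug pump P-glycoprotein together with mitochondrial and lysosomal transporters, and the C subfamily exports anionic conjugates and nucleotides or forms the sulfonylurea receptors of ATP-sensitive potassium channels. The D subfamily carries fatty acyl-CoA into peroxisomes or cobalamin out of lysosomes. The E and F proteins have no membrane-spanning part and act in ribosome recycling and translation. In the lung, ABC proteins are known for loading surfactant lipid into the lamellar bodies of alveolar type 2 cells, for sterol efflux from macrophages and for drug and glutathione-conjugate export from epithelium.

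Bulk RNA was sequenced from proximal and distal lung of American Romney sheep on gestational days 65, 80, 100, 120 and at term (day 147), with 2 libraries for each of the 20 combinations of genotype, region and age, 40 in all. The WT animals were bred conventionally and those at term were born naturally. The CF animals were cloned by nuclear transfer from fetal fibroblasts of 1 male line with a targeted CFTR exon 2, so they shared 1 founding genotype. Cloning went with the CF genotype at every age, so the 2 cannot be told apart in any CF against WT comparison. The paper gives neither the sex of the WT animals nor how the CF animals at term were delivered, and the part of either was not tested. Each animal gave a library from both regions. Animal labels were shared by the 2 WT libraries at day 100 and by a WT day 65 and a CF day 100 animal. The p-values therefore measure the spread between few libraries.

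Before term the 16 WT libraries held 24670355 to 43700012 counts and the 16 CF libraries 85773994 to 103139483, so depth and genotype cannot be told apart there. At term the 4 WT libraries held 115937437 to 126749480 counts and the 4 CF libraries 117316905 to 119451372. Depth was thus higher at term than before it in both genotypes, and more so in WT. Depth and age therefore cannot be told apart in comparisons with term. CFTR itself was still detected in every CF library, at 4.99 to 34.9 normalized read counts (CPM, scaled to the library total) before term against 11.02 to 43.8 in WT, and at 3.65 to 5.14 at term against 9.58 to 14.8. The tissue, which the labels call epithelial, also held mesenchyme, with 5 fibroblast markers summing to 989 to 9625 CPM over the 40 libraries and 5 epithelial markers to 423 to 1712 CPM. Because the tissue is mixed, fewer cells of a type and less RNA per cell cannot be told apart. The second CF proximal library at day 120 stood apart from its pair, with a median gap over all genes of 0.67 on the log2 scale against 0.11 to 0.38 for the other 19 pairs, and the second CF animal at term differed from the first in several of the genes below.

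The ABC genes were long transcripts in this annotation, with a median exon length of 4853 bases against 2497 for all genes, and 37 of the 39 were longer than that median. Several lay beside each other in the sheep genome (Oar_v4.0). ABCG8 and ABCG5, which form the sterolin pump of liver and gut, were divergent neighbours on chromosome 3 separated by 30 bases, at 80180144 to 80200774 and 80200805 to 80232162. ABCC1 (chromosome 24, 14293360 to 14449226) and ABCC6 (14453809 to 14519661) faced each other across 4582 bases. ABCA5, ABCA10 and ABCA6 followed in that order on the plus strand of chromosome 11 between 60102464 and 60299188. ABCC5 lay on the plus strand of chromosome 1 at 201182726 to 201264342, 159 kb from ABCF3, and ABCC10 on the plus strand of chromosome 20 at 16991049 to 17010614. Only ABCC5 and ABCC9 shared exon bases with another gene, 110 and 79 bases on the opposite strand. ABCB1 was split over 3 short sequences with 1311 exon bases in all, so its level is uncertain.

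Per kilobase of exon, ABC genes with housekeeping roles stood highest. The median level over the 40 libraries, in CPM per kilobase (RPKM), was 25.2 for ABCE1, the ribosome recycling ATPase, and 22.6 for ABCF3, 13.1 for ABCF1 and 11.9 for ABCF2, which act on translation. ABCD3, the peroxisomal importer of branched and long-chain acyl-CoA, reached 16.6 RPKM, ABCB10, a mitochondrial inner-membrane transporter used in haem synthesis, 14.7, and ABCD4, the lysosomal cobalamin transporter, 10.7. These 7 genes were the ones with a median of 10 RPKM or more. A further 18 lay between 1 and 10 RPKM, among them ABCG2, the breast cancer resistance protein that exports urate and porphyrins, at 8.06, ABCC9, the sulfonylurea receptor of vascular smooth muscle and pericytes, at 7.19, and ABCC5, an exporter of cyclic nucleotides, at 6.56. ABCA1, the cholesterol efflux pump, had 4.19 RPKM and ABCC10, a lipophilic anion pump, 4.08.

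**Figure D1:**
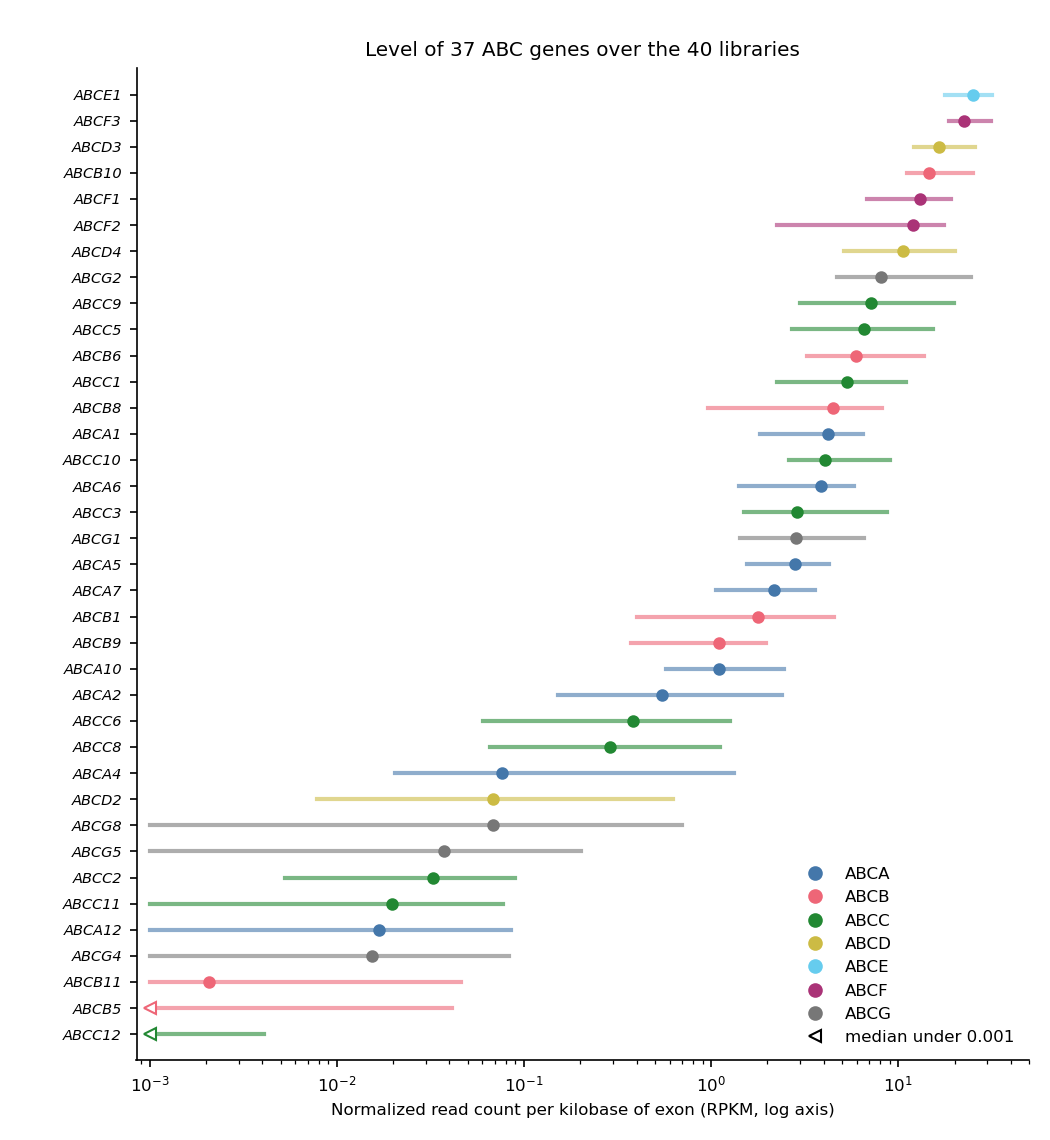
Level of 37 ABC genes per kilobase of exon (RPKM, log axis), with the median (point) and the range (line) over the 40 libraries and colours for the subfamilies. Lines that reach the left edge include libraries with no reads, and ABCE1, at 17.7 to 31.8 RPKM, stood highest while ABCB5 and ABCC12 had medians of 0.

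The remaining 14 genes were rare. ABCA4, the retinal transporter, had a median of 0.0764 RPKM but ranged 65.3-fold over the libraries, and ABCD2, a peroxisomal fatty acid importer, ranged 79.3-fold around a median of 0.0683 RPKM. ABCC12 had 4 reads in all and no read in 38 libraries, and ABCB5 had none in 28. In all, 32 genes passed the filter on low counts in each of the 7 fits, 6 passed in some fits and ABCC12 in none. ABCF3 and ABCE1 were steady, their highest library being 1.69 and 1.79 times their lowest.

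Between 65 days and term, some ABC genes rose and others fell in the WT lung. Of those tested, 38.2% were called in WT proximal and 45.5% in WT distal lung, against 45.1% and 42.8% of all genes. More of the called ABC genes were higher than lower, and whether this split differed from that of all genes was not tested. Called genes had an adjusted p of 0.05 or less in edgeR's quasi-likelihood test, with p-values adjusted after Benjamini and Hochberg across the whole table, and each adjusted p below comes from it. In WT proximal lung 9 ABC genes were higher at term and 4 lower of 34 tested, where 45.1% of all genes were called (23.5% higher, 21.5% lower). In WT distal lung 10 were higher and 5 lower of 33, against 42.8% of all genes (21.8% higher, 21% lower). In CF proximal lung 2 were higher and 2 lower of 36, against 11.6% (5.78% higher, 5.83% lower), and in CF distal lung 7 and 6 of 36, against 31.1% (16.1% and 15%). A change at any age was called for 15, 18, 2 and 12 ABC genes in WT proximal, WT distal, CF proximal and CF distal lung, where 40.8%, 40.4%, 5.36% and 33.9% of all genes were called. The counts in CF proximal lung depended on the libraries and the fit. Term against day 65 gave 0 ABC genes without either day 65 library, 2 without the second term library and 9 without either day 120 library, 9 with DESeq2 and 15 with 1 fit of 40 libraries, and a change at any age 0 to 7, 8 and 15. With the study's stricter limits (adjusted p of 0.001, log2 change of 0.58) term against day 65 left 4, 3, 0 and 1 ABC genes (14.7%, 11.7%, 0.0762% and 4.7% of all genes) and a change at any age 4, 1, 0 and 0 (10.6%, 7.48%, 0.0254% and 3.59%). The median log2 fold change of the ABC genes was 0.24, 0.01, -0.40 and -0.21 in WT proximal, WT distal, CF proximal and CF distal lung, against 0.02, -0.00, -0.08 and -0.01 for all genes.

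**Figure D2:**
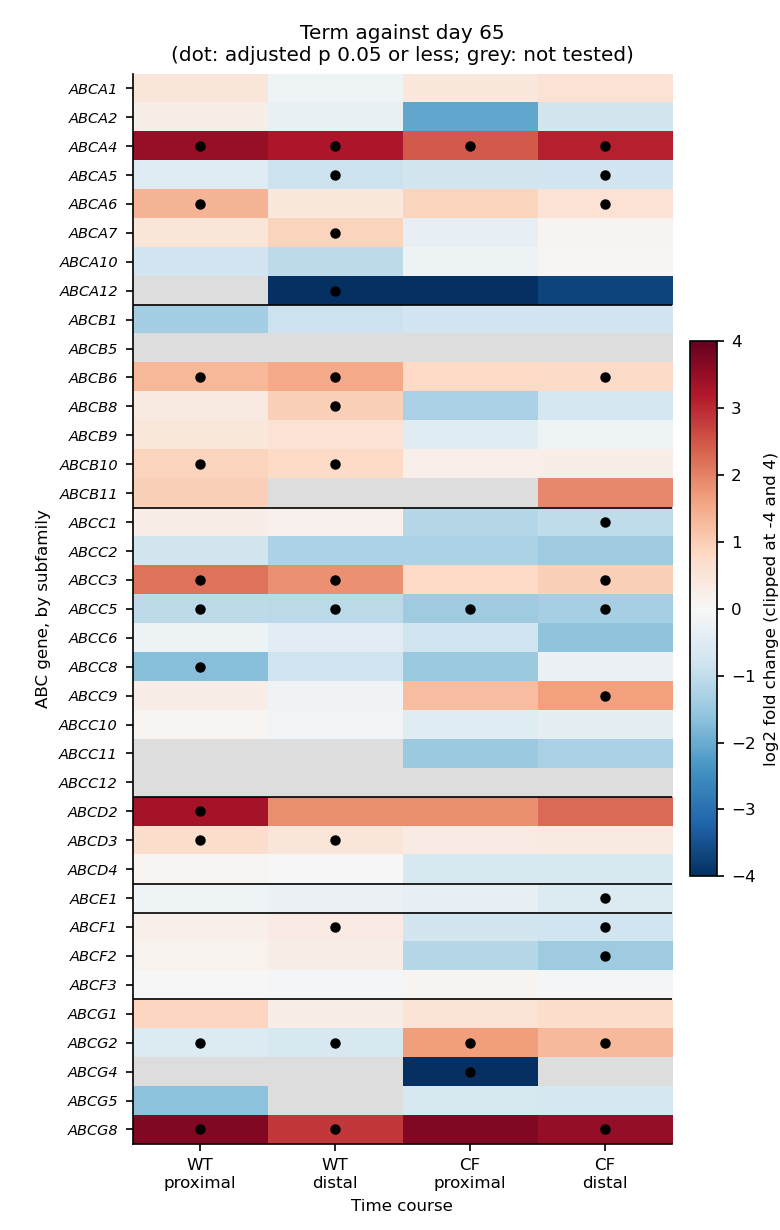
Log2 fold change of 37 ABC genes at term against day 65 in the 4 time courses (colour, clipped at -4 and 4), with a dot where the adjusted p was 0.05 or less and grey where the gene was not tested. ABCA4 was called higher and ABCC5 lower in all 4 columns, while ABCG2 was called lower in both WT columns and higher in both CF columns.

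Among the conjugate exporters, ABCC5 fell in all 4 courses and ABCC3 rose in 3 of 4. ABCC5 had 77.7 and 86.7 CPM in the WT proximal libraries at 65 days, 76.2 and 59.3 at 80 days, 55.9 and 60.0 at 100 days, 45.9 and 45.8 at 120 days and 36.3 and 44.3 at term. Each later age of the WT course thus lay at or below the one before in its mean, and the term and 65-day libraries did not overlap. The fall was 1.04 on the log2 scale in WT proximal lung (SE 0.16, adjusted p = 0.000677) and 1.09 in WT distal lung (SE 0.16, adjusted p = 0.000733). In CF lung ABCC5 stayed between 74.1 and 168 CPM until 120 days and was at 33.4 to 56.4 at term. It fell by 1.41 in CF proximal lung (SE 0.37, adjusted p = 0.0468), a call that was lost without any 1 of 8 of the 10 libraries, with an adjusted p of up to 0.256 without the second library at day 65. It fell by 1.32 in CF distal lung (SE 0.27, adjusted p = 0.00679), and by 1.74 between 120 days and term (adjusted p = 0.00599), the libraries having 115 and 102 CPM at 65 days and 168 and 114 at 120 days, which overlapped.

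ABCC3, a bile salt and glucuronide exporter of epithelia, had 9.55 and 7.99 CPM in WT proximal lung at 65 days and 36.8 and 42.3 at term. It rose 4.48-fold there (log2 2.16, SE 0.17, adjusted p = 2.32e-05) and 3.56-fold in WT distal lung (log2 1.83, SE 0.26, adjusted p = 0.000673). In CF distal lung the values at these ages were 9.75 and 7.25 CPM against 14.4 and 18.1, a rise of 0.97 on the log2 scale (SE 0.28, adjusted p = 0.0281) that was lost without any 1 of 5 libraries, with an adjusted p of up to 0.147. In CF proximal lung ABCC3 had 11.6 and 10.98 CPM at 65 days and 14.3 and 24.3 at term and was not called (log2 0.78, SE 0.33, adjusted p = 0.166). ABCC1, the glutathione-conjugate exporter MRP1, was not called in WT lung (log2 0.28 and 0.18) and fell by 1.01 in CF distal lung (SE 0.27, adjusted p = 0.0205), where the term libraries had 20.3 and 15.3 CPM and those at 65 days 39.8 and 33.8. Leaving out the second CF distal library at term or either one at 65 days ended that call (adjusted p up to 0.111). ABCC10 was not called in any course between 65 days and term (log2 -0.50 to 0.08).

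ABCG2 fell in WT and rose in CF lung. In WT proximal lung its 2 libraries had 39.9 and 40.8 CPM at 65 days, 55.4 and 49.6 at 120 days and 30.9 and 25.2 at term. In CF proximal lung they had 33.7 and 30.5 CPM at 65 days, 52.0 and 62.3 at 120 days and 122 and 79.4 at term. The distal libraries followed the same order, with 35.0 and 40.3 CPM against 23.4 and 25.8 in WT and 37.5 and 39.7 against 93.3 and 91.7 in CF at 65 days and term. No library of one age overlapped the other in any of the 4 courses. ABCG2 fell by 0.54 in WT proximal (SE 0.13, adjusted p = 0.00758) and 0.64 in WT distal lung (SE 0.14, adjusted p = 0.00605), and rose 3.16-fold in CF proximal (log2 1.66, SE 0.28, adjusted p = 0.00941) and 2.44-fold in CF distal lung (log2 1.29, SE 0.23, adjusted p = 0.00317). The WT proximal call was lost without the second term library (adjusted p = 0.0628), and the CF proximal call without either library at 65 days (adjusted p up to 0.119).

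Among the lipid transporters, ABCA4 and ABCG8 rose from low levels. ABCA4 had 1.58 and 1.18 CPM in WT proximal lung at 65 days and 12.9 and 17.9 at term, an 11.1-fold rise (log2 3.47, SE 0.39, adjusted p = 0.000128). It rose 9.34-fold in WT distal, 5.53-fold in CF proximal and 8.64-fold in CF distal lung (adjusted p = 0.00231, 0.0135 and 0.00125), the CF proximal call being lost without either library at 65 days (adjusted p up to 0.148). ABCG8, a sterol exporter partner, rose in 3 courses, from 0.210 and 0 CPM to 1.65 and 1.21 in WT proximal lung (adjusted p = 0.0135, or 0.0541 without the first term library) and from 0.188 and 0.127 to 1.79 and 1.79 in CF distal lung (adjusted p = 0.00589). In WT distal lung its rise (adjusted p = 0.031) was lost without the first term or the second 65-day library (adjusted p up to 0.128). Its neighbour ABCG5 had a median of 0.0881 CPM and was not called. ABCA6, a member of the chromosome 11 cluster, rose 2.58-fold in WT proximal lung from 14.0 and 11.5 to 26.8 and 39.3 CPM (log2 1.37, SE 0.22, adjusted p = 0.00106), whereas ABCA5, of the same cluster, fell by 0.87 in WT distal (SE 0.15, adjusted p = 0.00183) and 0.76 in CF distal lung (SE 0.20, adjusted p = 0.0172, or 0.0823 without the first 65-day library). ABCA6 also rose in CF distal lung, by 0.57 (adjusted p = 0.0331), lost without any 1 of 7 libraries. ABCA12, the lipid transporter of the skin barrier, had 0.571 and 0.741 CPM in WT distal lung at 65 days and 0 and 0.0175 at term (adjusted p = 0.00524). ABCA1, ABCG1 and ABCA10 were not called in any of the 4 courses, and ABCA7, a phagocyte lipid transporter, was called higher in WT distal lung (log2 0.90, SE 0.21, adjusted p = 0.0083).

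Several mitochondrial and peroxisomal transporters rose in WT lung. ABCB6, a porphyrin transporter, had 12.0 and 13.8 CPM in WT distal lung at 65 days and 33.8 and 40.7 at term (log2 1.502, SE 0.17, adjusted p = 0.00025), and rose 2.49-fold in WT proximal lung (adjusted p = 0.00335). ABCB10 rose by 0.90 and 0.78 on the log2 scale in WT proximal and distal lung (SE 0.12 and 0.16, adjusted p = 0.000294 and 0.00454). ABCD3 rose 1.62-fold in WT proximal and 1.39-fold in WT distal lung (adjusted p = 0.00344 and 0.00911, the second 0.0618 without the first WT distal library at 65 days). ABCD2 had 0.158 and 0.330 CPM at 65 days and 1.38 and 3.55 at term in WT proximal lung, a 9.99-fold rise (SE 0.65 on the log2 scale, adjusted p = 0.00298). Of these genes ABCB6 alone was called in a CF course, in distal lung (log2 0.76, SE 0.24, adjusted p = 0.0413), and 8 of the 10 libraries each ended that call when left out (adjusted p up to 0.242).

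Of the translation ATPases, ABCF1 alone was called between 65 days and term in WT lung, higher at term in distal lung by 0.33 (SE 0.12, adjusted p = 0.0463), a call lost without any 1 of 9 of the 10 libraries. In CF distal lung ABCE1, ABCF1 and ABCF2 were lower at term than at 65 days, by 0.54, 0.81 and 1.42 on the log2 scale (adjusted p = 0.0422, 0.0362 and 0.0493), and each call was lost without any 1 of 7 or 8 libraries, with an adjusted p of up to 0.198. ABCF2 had 36.4 and 41.5 CPM at 65 days and 22.5 and 6.02 at term, the lower value in the second animal, and its log2 change was -2.68 without the first and -0.76 without the second CF term library.

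Nearly all calls between consecutive ages came from the last interval. Of the ABC genes tested, 9 were called from 120 days to term in WT proximal, 11 in WT distal and 7 in CF distal lung, where 24.6%, 25.8% and 23% of all genes were called, and none in CF proximal lung, where 0.356% of all genes were (10 of the 36 had an unadjusted p under 0.05 and DESeq2 called 3 over the consecutive intervals). ABCF1 and ABCF2 rose in this interval in WT proximal (log2 0.49 and 0.60, adjusted p = 0.0198 and 0.0154) and WT distal lung (log2 0.66 and 0.69, adjusted p = 0.00546 and 0.00637), each call being lost without at least 1 library (adjusted p up to 0.117). The earlier intervals gave calls for ABCC9 alone, in WT proximal lung. From 65 to 80, 80 to 100 and 100 to 120 days 0.011%, 1.94% and 2.67% of all genes were called in WT proximal, 0.0164%, 1% and 2.49% in WT distal, 0%, 0% and 0.0203% in CF proximal and 0%, 0% and 0.928% in CF distal lung. ABCC9 had 57.4 and 49.4 CPM in WT proximal lung at 80 days, 99.4 and 96.1 at 100 days, 151 and 187 at 120 days and 70.7 and 57.7 at term. It rose by 0.85 (SE 0.14, adjusted p = 0.0204) and then 0.80 (SE 0.14, adjusted p = 0.0206) and fell by 1.40 to term (SE 0.14, adjusted p = 0.000357). Both rises were lost without any 1 of 4 libraries (adjusted p up to 0.151) and when the 2 WT libraries at day 100, which carry 1 animal label, were summed. WT distal lung also fell after 120 days, by 1.48 (SE 0.23, adjusted p = 0.00316). In CF distal lung ABCC9 was higher at term than at 65 days, at 102 and 84.9 CPM against 33.8 and 27.8 (log2 1.63, SE 0.21, adjusted p = 0.000666). KCNJ8, the channel pore that pairs with ABCC9, rose from 65 days to term in CF proximal and distal lung by 1.89 and 1.55 and was not called in WT lung (0.38 and 0.33).

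Cell type markers moved over the same time. All 5 alveolar type 2 markers were called higher at term in each of the 4 courses, their sum going from 516 to 896 CPM at 65 days to 12353 to 20601 at term in WT and from 418 to 566 to 6241 to 28240 in CF. All 5 proliferation markers were called lower in each course, from 714 to 806 to 97.8 to 222 in WT and from 492 to 653 to 19.8 to 39.5 in CF. Macrophage markers summed to 53.5 to 72.4 CPM at 65 days and 334 to 747 at term in WT (5 of 5 called higher in proximal and 4 of 5 in distal lung), and to 71.3 to 93.7 and 73.7 to 119 in CF (2 of 5 called higher in proximal, 3 higher and 1 lower in distal lung). Epithelial markers summed to 546 to 697 CPM at 65 days and 1491 to 1712 at term in WT (5 of 5 called higher in both regions), and to 423 to 573 and 710.004 to 1314 in CF (1 of 5 called higher in proximal and 4 of 5 in distal lung). Alveolar type 1 markers summed to 201 to 297 CPM at 65 days and 4299 to 5219 at term in WT, and to 171 to 262 and 1435 to 2904 in CF. Smooth muscle markers summed to 291 to 433 CPM at 65 days and 458 to 763 at term in WT, and to 982 to 1204 and 211 to 426 in CF. The part of these marker lists in the ABC genes' changes was not tested.

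Genes that work with these transporters were followed beside them. Of 15 tested genes for sterol sensing and lipid acceptors, 9 were higher and 1 lower at term in WT proximal lung and 10 and 1 in WT distal lung, against 3 and 0 in CF proximal and 5 and 1 in CF distal lung. Of all genes 23.5% were higher and 21.5% lower in WT proximal, 21.8% and 21% in WT distal, 5.78% and 5.83% in CF proximal and 16.1% and 15% in CF distal lung, which applies to the next lists too. NR1H3, the liver X receptor alpha that switches on ABCA1 and ABCG1, rose by 0.98 and 1.13 in WT proximal and distal lung and had log2 fold changes of 0.73 and 0.31 in CF. Of 12 genes of xenobiotic sensing and conjugation, 5 were higher and 1 lower in both WT regions, 1 and 0 in CF proximal and 3 and 0 in CF distal lung. GSTA1, a glutathione transferase that makes conjugates for MRP pumps, rose by 3.92 and 5.17 in WT proximal and distal lung. Of 8 peroxisome genes tested, 3 were higher and 1 lower in WT proximal lung, 2 and 1 in WT distal lung and none in CF.

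Comparing CF with WT lungs before term asked which ABC genes differed over days 65 to 120. In proximal lung 7 were higher in CF and 1 lower of 37 tested, where 20.6% of all genes were called (13.8% higher, 6.77% lower). In distal lung 10 were higher and 1 lower of 37, against 32.3% (18.6% higher, 13.6% lower). ABCC5, ABCC10, ABCD4, ABCA7 and ABCB6 were higher in CF in both regions. The median log2 fold change of the ABC genes was 0.06 in proximal and 0.18 in distal lung, against 0.07 and 0.03 for all genes. With the stricter limits 3 and 5 ABC genes remained in proximal and distal lung, against 2.5% and 6.86% of all genes.

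Among the called genes with an average log2 CPM at or above 0, ABCC10 and ABCC5 had the largest differences. ABCC10 stood at 12.97 to 17.4 CPM in the 8 WT proximal libraries before term (median 15.8) and at 25.9 to 42.5 in the 8 CF ones (median 34.4). In distal lung the ranges were 12.2 to 19.3 CPM (median 17.2) and 23.8 to 41.5 (median 36.1). Every CF library lay above every WT library in both regions. The mean difference over the 4 ages was 2.19-fold in proximal (log2 1.13, SE 0.12, adjusted p = 8.8e-05) and 2.06-fold in distal lung (log2 1.05, SE 0.11, adjusted p = 8.92e-06). ABCC5 lay at 50.3 to 76.1 CPM in WT distal lung (median 62.5) and at 102 to 168 in CF (median 137), again without overlap, and was 2.17-fold higher (log2 1.12, SE 0.11, adjusted p = 6.09e-06). In proximal lung the second CF library at day 120, at 74.1 CPM, lay among the WT libraries, and ABCC5 was 1.95-fold higher (log2 0.96, SE 0.14, adjusted p = 0.000616). Leaving out any 1 library kept these 4 calls.

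**Figure D3:**
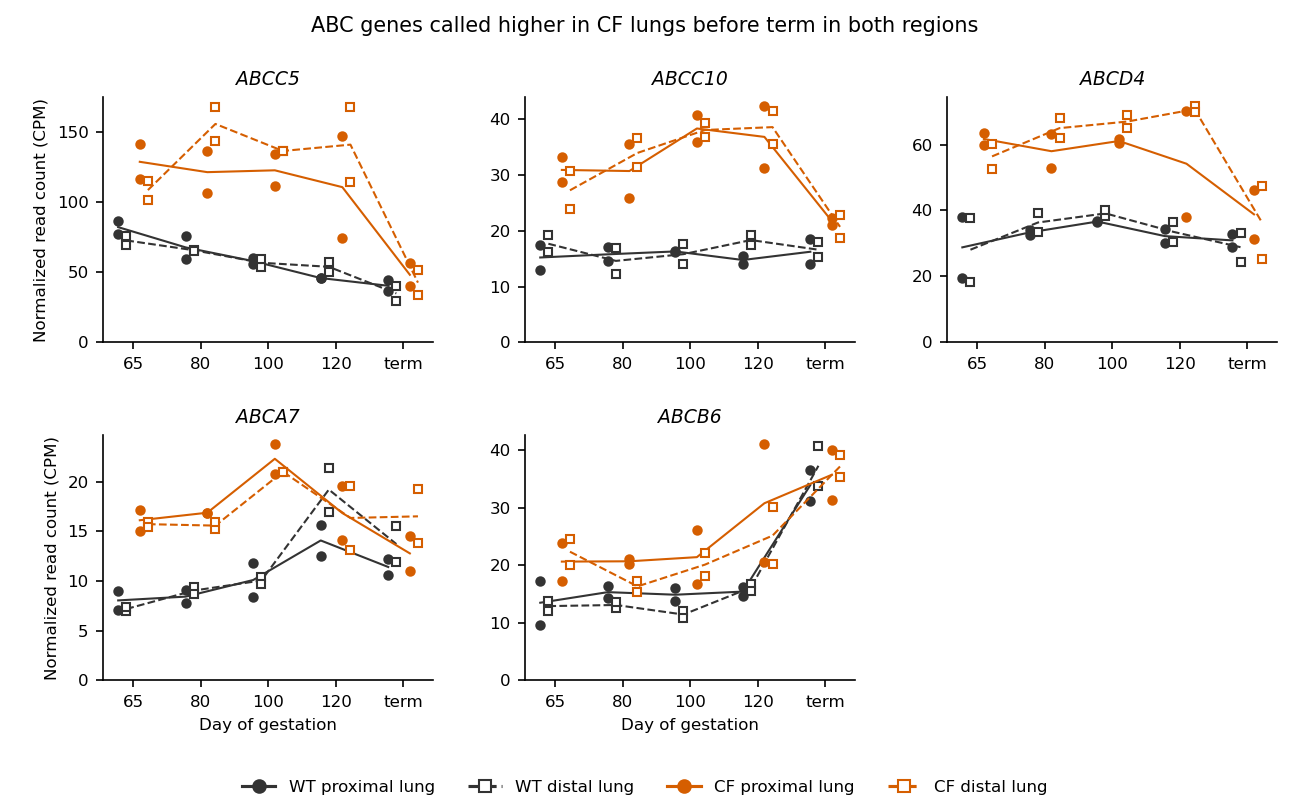
Normalized read counts (CPM) of 5 ABC genes called higher in CF lungs before term in both regions, by day of gestation. Each point is 1 library, lines join the means of 2 libraries, and black marks WT and orange CF, with filled circles for proximal and open squares for distal lung. CF libraries of ABCC10 lay above the WT ones at every age before term, and also at term.

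ABCD4, ABCA7 and ABCB6 differed less. ABCD4 was at 19.6 to 37.99 CPM in WT and 38.1 to 70.3 in CF proximal lung and at 18.3 to 40.05 and 52.7 to 71.7 in distal lung, without overlap in either region. It was 1.80-fold higher in proximal (log2 0.84, SE 0.16, adjusted p = 0.00228) and 1.89-fold higher in distal lung (log2 0.92, SE 0.15, adjusted p = 0.000465). ABCA7 was higher by 0.85 in proximal (SE 0.14, adjusted p = 0.000992) and 0.69 in distal lung (SE 0.12, adjusted p = 0.000533). ABCB6 was higher by 0.64 in both (SE 0.18 and 0.11, adjusted p = 0.0201 and 0.000441), the proximal call being lost without any 1 of 6 libraries (adjusted p up to 0.0569). CF libraries lay wholly above the WT ones for 3 of 37 ABC genes in proximal lung (3.66% of all genes) and 4 in distal lung (4.55%), and wholly below for none (1.8% and 1.69% of all genes).

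The remaining calls came from 1 region. In distal lung ABCB8, a transporter of the mitochondrial inner membrane, ABCC1, ABCA6 and ABCE1 were higher by 0.65, 0.53, 0.33 and 0.26 (adjusted p = 0.0227, 0.00224, 0.00628 and 0.0121), and ABCD3 was lower by 0.25 (SE 0.07, adjusted p = 0.00961). ABCB8 lost its call without any 1 of 7 libraries (adjusted p up to 0.082). With the animals of shared labels left out, the distal calls of ABCB8, ABCC1, ABCA6, ABCA7, ABCD3 and ABCE1 were lost, and ABCA6 and ABCE1 lost theirs when a trend with gene length was removed. In proximal lung ABCA4 was lower by 0.62 (SE 0.19, adjusted p = 0.0306), lost without any 1 of 10 of the 20 libraries (adjusted p up to 0.0879), with the WT day 100 libraries summed (0.0541), with thinning to equal depth (0.0538) and with the trend with gene length removed (0.0678). ABCG4, a neuronal sterol exporter, was called higher from low levels that overlapped, 0.0763 to 0.388 CPM in CF (8 to 42 reads) against 0 to 0.158 in WT (0 to 6 reads).

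Day by day few genes passed. In proximal lung none was called at 65, 80 or 100 days (0.167%, 0.0885% and 0.383% of all genes called, with 7, 7 and 5 of 37 at an unadjusted p under 0.05) and ABCC10 and ABCC5 were at 120 days (1.35%). DESeq2 called 7 ABC genes over these 4 ages. In distal lung 3, 2, 4 and 3 ABC genes were called at 65, 80, 100 and 120 days (at 65 days 3 of 3 were higher, against 1 of 1 with RLE scaling and 2 of 3 with the trend with gene length removed or with thinning), where 5.23%, 5.92%, 5.3% and 4.38% of all genes were. ABCC10 and ABCC5 were called at 80, 100 and 120 days, at log2 differences of 1.09 to 1.40, and at 65 days they were 0.62 and 0.58 (adjusted p = 0.115 and 0.145). At 120 days ABCC1 was also higher, by 0.87 (adjusted p = 0.0377), a call lost without any 1 of 13 libraries. Each call at a single age was lost without at least 1 library, the ABCC5 call at 120 days in proximal lung without any 1 of 16 (adjusted p up to 0.351). Its log2 difference of 1.27 was 0.69 without the first and 1.68 without the second CF library of that age. The calls at day 100 were lost when the 2 WT libraries with 1 animal label were summed (adjusted p = 0.0776 for ABCC10 and 0.102 for ABCC5 in distal lung). Removing the trend with gene length added calls of ABCC10 and ABCC5 at 100 days in proximal lung (adjusted p = 0.0353 for each). It also added a call of ABCC5 at 65 days in distal lung (adjusted p = 0.0274).

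Markers of other cell types differed between the genotypes at these ages. Smooth muscle markers summed to 251 to 638 CPM in WT and 578 to 1329 in CF before term, with 5 of 5 called higher in CF proximal and 4 of 5 in CF distal lung. Fibroblast markers summed to 2050 to 3290 and 2150 to 9625 CPM, with 0 of 5 higher and 1 lower in proximal and 1 higher and 1 lower in distal lung. Their part in the ABC differences was not tested. Of 9 genes that work with ABCE1 and ABCF proteins on the ribosome, 6 were lower in CF in each region. Of all genes 6.77% and 13.6% were lower in proximal and distal lung. GCN1 was higher in distal lung. EIF2S3, a translation initiation factor, had log2 differences of -0.99 in proximal and -0.95 in distal lung. The part of animal sex in these differences was not tested.

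At term the differences took another shape. In proximal lung 1 ABC gene was higher in CF and 5 lower of 37, where 6.09% of all genes were called (2.6% higher, 3.49% lower), and in distal lung 4 were higher and 7 lower, against 15.2% (7.65% higher, 7.57% lower). With the stricter limits 1 was left in each region (0.339% and 1.25% of all genes). ABCG2 was higher in CF, and ABCF1, ABCF2, ABCB10 and ABCC3 lower, in both regions. ABCC5 and ABCC10 were not called at term, with log2 differences of 0.26 and 0.42 in proximal and 0.32 and 0.35 in distal lung, and the CF libraries of ABCC10 still lay wholly above the WT ones in both regions. The effect at term differed from the earlier one for ABCC5 in distal lung (-0.80, adjusted p = 0.0366), was not called as different for it in proximal lung (-0.70, adjusted p = 0.234), and was not called as different for ABCC10 (-0.71 and -0.70, adjusted p = 0.16 and 0.058) or ABCD4 (-0.52 and -0.56, adjusted p = 0.45 and 0.283).

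**Figure D4:**
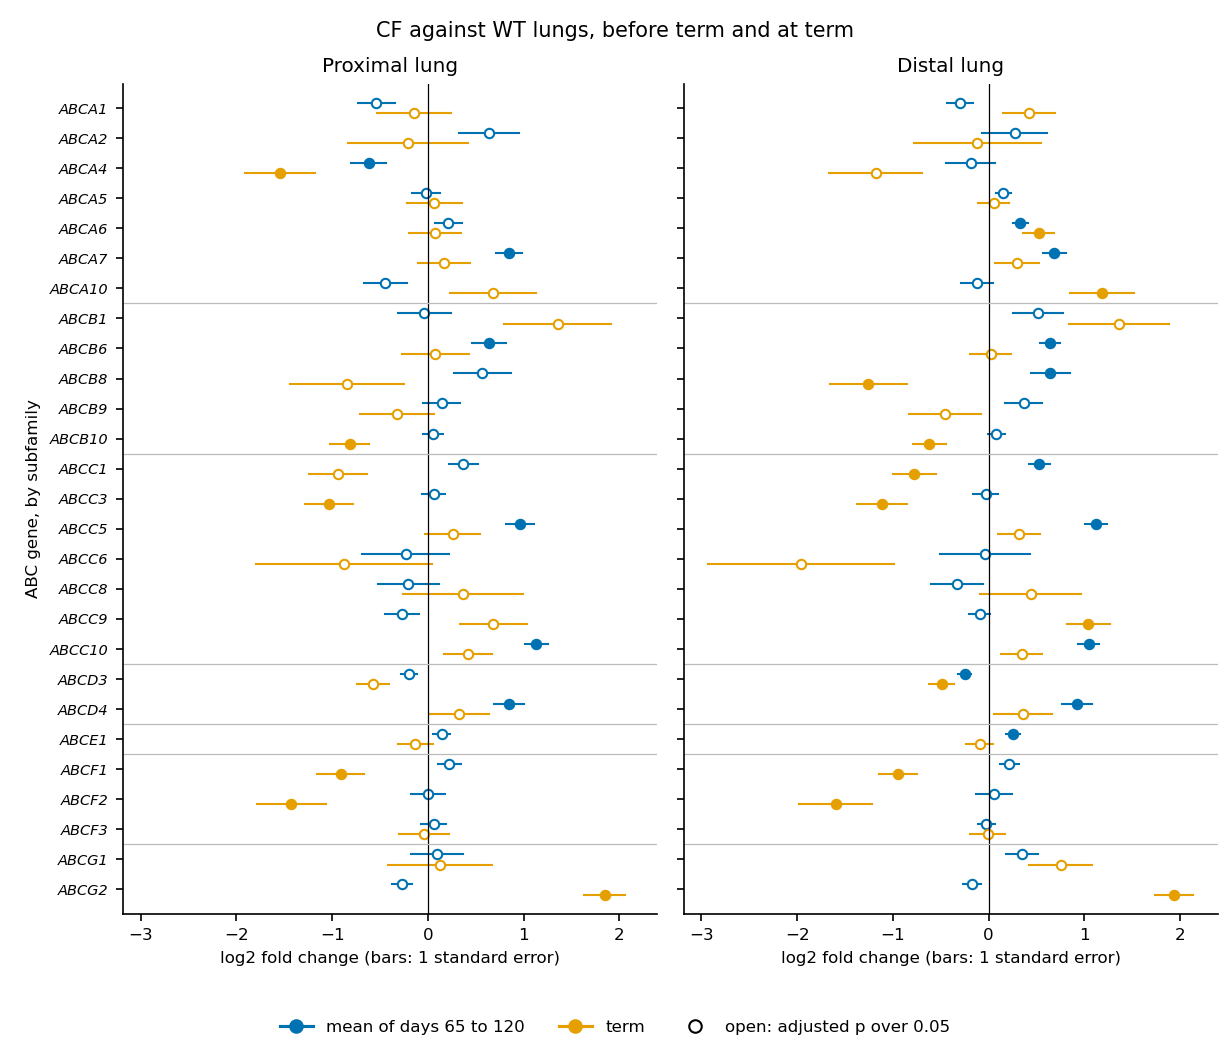
Log2 fold change of CF against WT lung for 27 of the 29 ABC genes with an average log2 CPM at or above 0, as the mean of days 65 to 120 (blue) and at term (orange), with bars of 1 standard error and filled points where the adjusted p was 0.05 or less. Called points before term lay mostly to the right, while at term ABCF1, ABCF2, ABCB10 and ABCC3 lay to the left and ABCG2 near 2 in both regions.

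ABCG2 stood apart between the genotypes. Its CF term libraries stood at 122, 79.4, 93.3 and 91.7 CPM and its WT term libraries at 30.9, 25.2, 23.4 and 25.8, proximal before distal. ABCG2 was 3.59-fold higher in proximal (log2 1.84, SE 0.21, adjusted p = 0.000348) and 3.83-fold higher in distal lung (log2 1.94, SE 0.20, adjusted p = 6.76e-05), and each call held without any 1 library. Before term the difference was -0.27 and -0.17, so the effect at term exceeded the earlier one by 2.12 and 2.11 (SE 0.24 and 0.22, adjusted p = 0.000378 and 8.69e-05), where 4.57% and 17.9% of all genes had a called difference of the effects (1.62% and 8.13% higher, 2.95% and 9.79% lower) and 0.221% and 1.07% one past the stricter limits. For ABC genes these counts were 6 of 37 (1 higher, 5 lower) and 11 (3 higher, 8 lower), with 1 past the stricter limits in each region.

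In distal lung ABCC9, ABCA10 and ABCA6 were also higher in CF. ABCC9 had 102 and 84.9 CPM in CF and 56.8 and 36.0 in WT (log2 1.04, SE 0.23, adjusted p = 0.00745), a call lost without the second WT library (adjusted p = 0.0674). KCNJ8 was higher by 1.07 in the same comparison. Over both regions at term, pericyte markers, a list that includes KCNJ8 itself, summed to 231 to 374 CPM in WT and 500.1 to 541 in CF libraries. Smooth muscle markers summed to 458 to 763 in WT and 211 to 426 in CF (2 of 5 called lower in proximal and 3 of 5 in distal lung). The part of either was not tested. ABCA10 had 8.62 and 10.2 CPM against 3.87 and 4.58 (log2 1.18, SE 0.33, adjusted p = 0.0275), lost without the second CF or either WT library (adjusted p up to 0.161) and with 1 fit of 40 libraries (0.0636). ABCA6 was higher by 0.52 (adjusted p = 0.0428), lost without any 1 of 16 libraries.

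Among the lower genes, ABCC3 stood at 14.3 and 24.3 CPM in CF and 36.8 and 42.3 in WT proximal lung and at 14.4 and 18.1 against 38.1 and 33.6 in distal lung. It was lower by 1.04 and 1.11 (SE 0.25 and 0.26, adjusted p = 0.0266 and 0.0109). The proximal call was lost without the first CF or either WT term library (adjusted p up to 0.191) and the distal one without the first WT term library (adjusted p = 0.0627). At term the summed epithelial markers ranged from 1491 to 1712 CPM over the WT libraries and from 710.004 to 1314 over the CF ones, without overlap (0 of 5 called in proximal and 1 of 5 called lower in distal lung), and their part was not tested. ABCA4 was lower by 1.55 in proximal lung (SE 0.37, adjusted p = 0.0241), at 5.49 and 5.05 CPM against 12.9 and 17.9, and each of the 4 term libraries ended this call when left out. In distal lung ABCA4 had 6.72 and 4.35 CPM against 10.9 and 14.6 (log2 -1.18, adjusted p = 0.115). ABCF2 had 22.9 and 8.44 CPM in CF and 45.7 and 38.6 in WT proximal lung and 22.5 and 6.02 against 40.8 and 47.1 in distal lung, with log2 differences of -1.43 and -1.599 (SE 0.36 and 0.38, adjusted p = 0.0321 and 0.0124). These values turned on 1 library, being -0.90 and -0.97 without the second CF term library of the region and -2.34 and -2.89 without the first. Without the second CF proximal term library or either WT proximal one the proximal call was lost (adjusted p up to 0.159). ABCF1 was lower by 0.91 and 0.95 (SE 0.25 and 0.20, adjusted p = 0.043 and 0.00653), the proximal call being lost without any 1 of 14 libraries, and ABCF3 had differences of -0.04 and -0.01 (SE 0.26 and 0.18).

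The mitochondrial transporters ABCB10 and ABCB8 were lower in CF too. ABCB10 had 60.7 and 45.3 CPM against 93.5 and 93.4 in proximal and 57.6 and 48.4 against 91.997 and 74.0 in distal lung (log2 -0.82 and -0.62, SE 0.21 and 0.18, adjusted p = 0.0317 and 0.0295). The proximal call was lost without any 1 of 8 libraries and the distal one without the first WT or second CF term library (adjusted p up to 0.209 and 0.15). ABCB8 was lower by 1.26 in distal lung (adjusted p = 0.0475), lost without any 1 of 14 libraries. It was also lost with 1 fit of 40 libraries, with the WT day 100 libraries summed and with thinning (adjusted p = 0.13, 0.061 and 0.0539). ABCC1 and ABCD3 were lower in distal lung by 0.78 and 0.49 (adjusted p = 0.0293 and 0.0233), each lost without the first WT or second CF term library (adjusted p up to 0.197 and 0.106). ABCC1 had been higher in CF distal lung before term, and the 2 effects differed by -1.30 (SE 0.25, adjusted p = 0.0034).

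**Figure D5:**
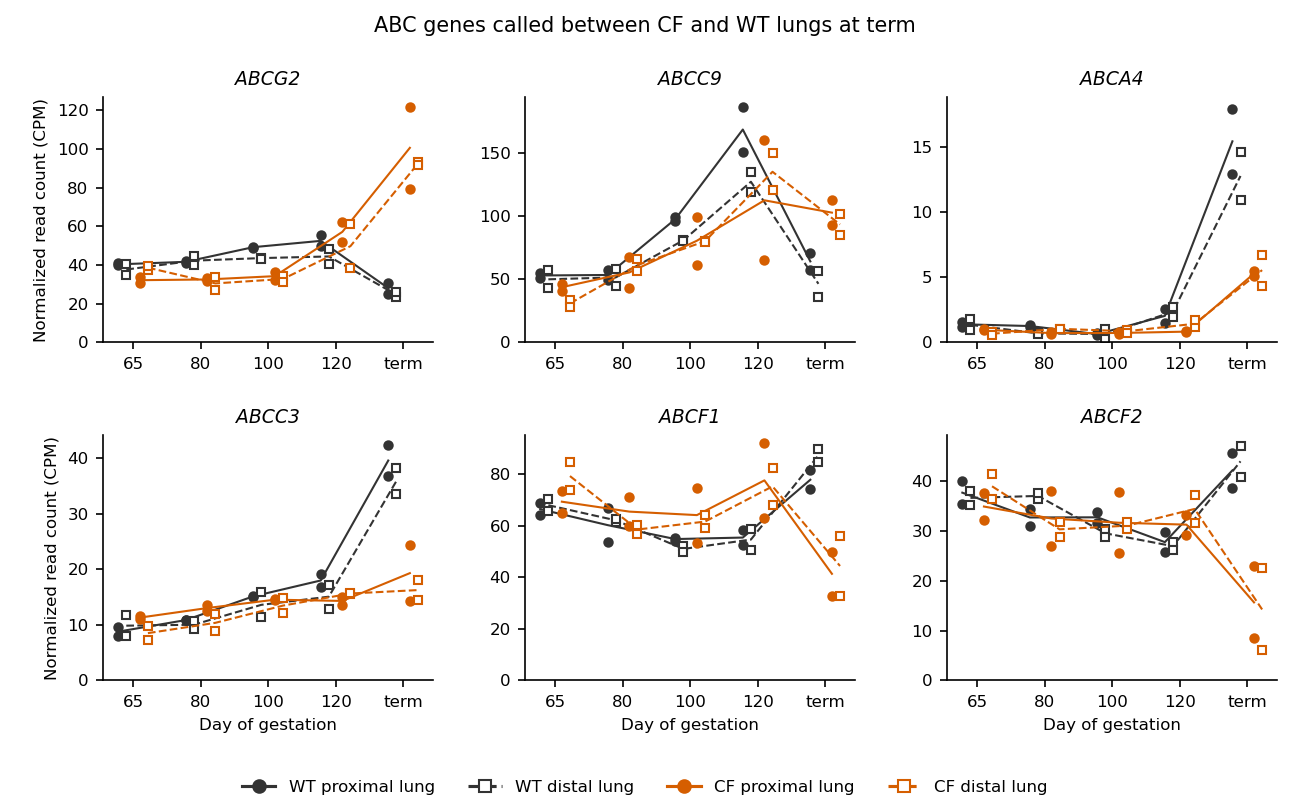
Normalized read counts (CPM) of 6 ABC genes called between CF and WT lungs at term in at least 1 region, by day of gestation, drawn as in the plot of the genes raised before term. ABCG2 rose to 79.4 to 122 CPM in CF term libraries and fell to 23.4 to 30.9 in WT ones, while ABCA4, ABCC3, ABCF1 and ABCF2 ended lower in CF than in WT libraries.

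At term CF libraries lay wholly above the WT ones for 4 of 37 ABC genes in proximal and 9 in distal lung (24.7% and 23.3% of all genes) and wholly below for 13 and 12 (29.6% and 25.8%). Macrophage markers summed to 334 to 747 CPM in WT and 73.7 to 119 in CF at term, with 4 of 5 lower in proximal and 3 of 5 in distal lung. MARCO, a scavenger receptor of alveolar macrophages, was lower, at log2 differences of -5.33 and -4.72. Proliferation markers summed to 97.8 to 222 and 19.8 to 39.5 CPM (5 of 5 lower in proximal, 4 of 5 in distal lung), alveolar type 1 markers to 4299 to 5219 and 1435 to 2904 (1 and 2 of 5 lower) and fibroblast markers to 989 to 2082 and 1936 to 2756 (3 of 5 higher in both regions). Erythroid markers were near 0, at 0.93 to 3.22 CPM in WT and 4.15 to 8.40 in CF (0 of 5 called in proximal and 1 of 5 higher in distal lung). The part of these lists in the ABC differences was not tested. Sterol genes differed in the same libraries, with 1 higher and 5 lower of 15 in proximal (2.6% and 3.49% of all genes) and 3 and 5 in distal lung (7.65% and 7.57%). APOE, a sterol acceptor, was higher by 2.28 and 1.75 in proximal and distal lung, whereas ABCA1 and ABCG1 were not called (log2 -0.15 and 0.13 in proximal, 0.42 and 0.75 in distal lung). ALAS1, which starts haem synthesis, was lower by 1.94 and 1.82.

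No ABC gene was called between proximal and distal lung. None of the 38 tested passed in WT or CF (0.00481% and 0.00963% of all genes), by edgeR, by DESeq2 or with the animal as a block, and 0 in WT and 1 in CF had an unadjusted p under 0.05. Among 29 genes whose average log2 CPM reached 0, the distal minus proximal log2 differences ran from -0.31 to 0.13 in WT and from -0.22 to 0.29 in CF. The gene with an unadjusted p under 0.05 was ABCA6, higher in distal CF lung by 0.29 (SE 0.10). ABCC9 and ABCD2 were each higher in the proximal library in 15 of 20 pairs of libraries, with median distal minus proximal differences of -0.25 and -0.32 on the log2 scale. ABCC5 and ABCC10 differed by -0.04 and 0.08 in WT and 0.09 and -0.01 in CF.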

How the data were processed

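The authors aligned reads of oligo dT libraries to sheep genome Oar_v4.0 with STAR (2.6 per the labels) and deposited whole-number gene counts from featureCounts 1.6.3. A further table repeated the CF columns with identical counts and was not used. In every library 69.2 to 85.8% of counts from 1 to 20 were even, so counts may not be independent fragments. The deposited counts were tested with edgeR 4.0.16 (R 4.3.3): TMM scaling, a filter on low counts (minimum 10, total 15), the quasi-likelihood test and Benjamini-Hochberg adjustment over all genes tested, called at 0.05. There were 7 fits, 1 for each time course, 1 for each region and 1 for region differences. CPM used TMM over all 40 libraries. DESeq2 1.42.0 was an alternative, and the pipeline was tested on simulated data. Members and gene lists were chosen with earlier results of these data known. Named genes were ABCC5, ABCC10 and the 3 largest calls per direction and comparison (average log2 CPM at least 0), and others were named after their values were seen. Same-numbered libraries were not paired: deviations correlated at -0.67 to 0.81 between days of a course and at -0.24 to 0.38 between genotypes. The libraries of 1 animal correlated at -0.35 to 0.85 between regions. Some genes are not reported here.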

Additional observations from a re-analysis of the deposited data

Results flagged for a closer look

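The CF effect is the difference between cloned CF and conventionally bred WT lungs. It differed between term and the mean of days 65 to 120 for the ABC genes below, by the test of term minus earlier (edgeR's quasi-likelihood test, Benjamini-Hochberg adjusted p of 0.05 or less). Values are the effect at term minus the earlier effect, on the log2 scale.

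In both regions the effect of ABCG2 was higher at term, by 2.11 in distal and 2.12 in proximal lung. It was lower for ABCB10 (-0.70 distal, -0.87 proximal), ABCC1 (-1.30 distal, -1.31 proximal), ABCC3 (-1.08 distal, -1.09 proximal) and ABCF1 (-1.17 distal, -1.13 proximal). The proximal calls of ABCB10, ABCC1, ABCC3 and ABCF1 were each lost without any 1 of 13 to 17 libraries.

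The genes called in distal lung alone included ABCA10 (1.31) and ABCC9 (1.14), which were higher, and ABCB8 (-1.90), ABCF2 (-1.65) and ABCC5 (-0.80), which were lower. The ABCC5 call was lost without any 1 of 8 libraries (adjusted p up to 0.214). Whether distal and proximal lung differed in these effects was not tested.

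In proximal lung ABCG4 had a fitted value of -10.45, which depends on the prior count and is no bound. Its CF proximal libraries had 0.0763 to 0.388 CPM (8 to 42 reads) before term and no read at term, and its WT ones 0 to 0.158 CPM (0 to 6 reads) and 0.100 to 0.122 CPM (12 to 14 reads).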

How the results depend on the processing

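The counts are of ABC genes called, with the value of the tests above in brackets. With the stricter limits for differentially expressed genes (adjusted p of 0.001, log2 change of 0.58), change over days gave 4 (15), 1 (18), 0 (2) and 0 (12) in WT proximal, WT distal, CF proximal and CF distal lung, term against day 65 gave 4 (13), 3 (15), 0 (4) and 1 (13), and consecutive ages 1 (9), 0 (11), 0 (0) and 0 (7). CF against WT gave 3 (8) proximal and 5 (11) distal before term, 0 (2) and 0 (6) at single days, 1 (6) and 1 (11) at term and 1 (6) and 1 (11) for the difference. With 1 fit of 40 libraries CF proximal lung gave 15, 15 and 7, single days proximal 4 and distal term 7. DESeq2 gave 8, 9 and 3 in CF proximal lung, 15 for consecutive ages in CF distal lung and 7 and 10 at single days. Thinning gave 1 at single days in proximal lung, summing the WT day 100 libraries 1 and 3 at single days and 2 for the proximal difference, and no filter 3 at single days in distal lung. To remove shared labels, all day 100 libraries and the second WT one at day 65 were left out, a choice made after seeing the data. That gave 2 and 5 for the difference and 5 before term in distal lung. The cause was not tested.

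The replicate block gave 1 for change over days in CF proximal lung and 1 at single days in proximal lung, ended the ABCC5 call between 65 days and term in CF proximal lung, and with the animal as block the regions again gave 0.

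Leaving out 1 library gave 12 to 14, 12 to 17, 0 to 7 and 7 to 13 for change over days, 11 to 14, 12 to 16, 0 to 9 and 5 to 14 for term against day 65 and 5 to 10, 5 to 13, 0 to 3 and 2 to 11 for consecutive ages. CF against WT gave 5 to 11 and 10 to 12 before term, 0 to 8 and 3 to 7 at single days, 1 to 8 and 5 to 11 at term and 1 to 10 and 7 to 13 for the difference, and region 0 to 0. Uncalled log2 values changed sign for ABCC10 in WT proximal lung (-0.14 and -0.12, range -0.14 to 0.33) and WT distal lung (0.0064, range -0.25 to 0.0064) at term against day 65, for ABCC5 at term in proximal (-0.031, range -0.031 to 0.46) and distal lung (-0.078, range -0.078 to 0.57), for ABCC5 between regions in WT (0.027) and for ABCC10 between regions in CF (0.0019, 0.018, 0.016, 0.047 and 0.061, range -0.072 to 0.061).

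No scaling moved the median of all genes by over 0.1, and removing a trend with gene length gave 8 of 10 calls higher in distal lung before term (10 of 11), 2 of 6 at term in proximal lung (1 of 6) and 2 of 5 for the proximal difference (1 of 6). At day 65 in distal lung RLE scaling left 1 ABC gene called (3), and with the length trend removed or with thinning 2 of 3 calls were higher (3 of 3).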
